A study of Caenorhabditis elegans with 2 samples.

Results

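In Caenorhabditis elegans the oocyte carries surface proteins that receive the sperm, and fertilization is followed by release of cortical granules and assembly of a layered eggshell. The outer vitelline layer already surrounds the oocyte, a chitin layer forms under it, and a layer of chondroitin proteoglycans lies inside that. A permeability barrier then seals the embryo. The 10 genes described here encode proteins of these steps, and they were named for this description as a list, out of 19973 nuclear protein-coding genes. For each gene, every deposited peak that touched the stretch from 2000 bp upstream of its start to its end was read in all 8 peak lists, and the list of genes was drawn up with the presence of such peaks known.

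The peaks came from chromatin immunoprecipitation with sequencing (ChIP-seq) of Y79H2A.3, in strain RW12273. Y79H2A.3 is a gene of chromosome III whose product RefSeq describes as holding a C2H2-type domain, a kind of zinc finger. In that strain the gene carries TY1::EGFP::3xFLAG at its own locus, inserted by CRISPR, and the fusion protein was precipitated with an antibody to GFP. The 1 group held 2 biological replicates of whole young adults, 63 hours old, synchronised by starving L1 larvae after bleaching. No control library was analysed here, the read depth is unknown, and chromatin of all tissues is pooled, so a peak cannot be assigned to the germ line or to any other tissue. With 1 group there was no contrast to test, and all values below are descriptions.

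Of the 10 genes, 4 had peaks in the conservative list, the list of peaks that passed a comparison of the replicates at an irreproducible discovery rate (IDR) of at most 0.01. These were cpg-1 and cpg-2, which encode chondroitin proteoglycans of the inner eggshell, cbd-1, which encodes a chitin-binding protein of the vitelline layer, and egg-1, which encodes an oocyte membrane protein needed for sperm entry. By the same window, 6.26% of all protein-coding genes had a conservative peak, and since the genes were chosen with this known the count carries no further reading. All 4 had a summit in the promoter, taken as 1000 bp upstream to 200 bp downstream of a transcript start, where 2.88% of all genes had one. The summits lay 157 to 252 bp upstream of the gene starts. In 3 of the 4, cpg-1, cpg-2 and cbd-1, another conservative summit lay within 200 bp of the gene end. The other 6 genes, egg-2, egg-3, chs-1, cpg-3, perm-2 and perm-4, had no conservative peak.

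The sequences under 3 of the 4 promoter peaks, those of cbd-1, cpg-1 and egg-1, are shown because the strings described next are read from them. Each is the deposited 296-bp peak read from the WBcel235 (ce11) assembly on the strand of its gene, 5′ to 3′. The cbd-1 peak is chrIV:11372641-11372936 on the plus strand, the cpg-1 peak chrIII:4488970-4489265 on the plus strand and the egg-1 peak chrIII:5727875-5728170 on the plus strand. Capitals mark GCGGGAAA and AGATCAAA, the latter also where it reads as TTTGATCT from the other strand.
cbd-1: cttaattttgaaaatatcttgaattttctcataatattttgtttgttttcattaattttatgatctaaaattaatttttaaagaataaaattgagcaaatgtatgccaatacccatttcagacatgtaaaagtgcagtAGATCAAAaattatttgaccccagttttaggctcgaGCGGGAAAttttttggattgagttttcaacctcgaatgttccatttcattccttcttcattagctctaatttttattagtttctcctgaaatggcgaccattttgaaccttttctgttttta
cpg-1: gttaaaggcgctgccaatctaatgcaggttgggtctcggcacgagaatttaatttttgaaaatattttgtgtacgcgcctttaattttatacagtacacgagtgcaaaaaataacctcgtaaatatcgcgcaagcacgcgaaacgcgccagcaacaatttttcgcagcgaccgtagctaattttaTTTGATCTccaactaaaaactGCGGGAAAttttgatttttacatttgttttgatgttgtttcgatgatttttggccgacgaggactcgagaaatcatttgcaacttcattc
egg-1: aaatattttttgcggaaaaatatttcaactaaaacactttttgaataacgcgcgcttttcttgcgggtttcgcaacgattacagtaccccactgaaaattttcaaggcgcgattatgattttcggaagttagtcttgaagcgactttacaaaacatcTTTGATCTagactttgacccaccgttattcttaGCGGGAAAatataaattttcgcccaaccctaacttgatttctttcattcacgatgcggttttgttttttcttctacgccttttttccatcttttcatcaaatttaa

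Both marked strings were picked from the promoter peaks of all 4 genes. Those peaks share 4 strings of 8 letters on either strand, namely GCGGGAAA, AGATCAAA, AAAACAAA and ATTTTTTG, and none of 9 letters. The 2 with most G and C letters are marked, so their presence in the 4 peaks is fixed by the choice. The choice did not fix their order, but it kept their distance within the length of a peak. In the 3 peaks shown, GCGGGAAA read on the strand of the gene and lay downstream of the other string. Its first letter stood 176 bp upstream of the start of cbd-1, 183 bp upstream of cpg-1 and 115 bp upstream of egg-1. AGATCAAA began 36 bp before it in cbd-1, 21 bp before it in cpg-1 and 33 bp before it in egg-1. Its strand was that of the gene in cbd-1 and the opposite one in cpg-1 and egg-1.

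GCGGGAAA, which has the letters of an E2F-type recognition sequence, occurred on either strand in 2.75% of the 500-bp windows upstream of all 19973 genes. It occurred in 4.02% of 296-bp windows centred on the 1021 conservative summits. AGATCAAA occurred in 6.15% of the upstream windows and 3.13% of the conservative windows. AAAACAAA and ATTTTTTG were in 24.2% and 28.3% of the upstream windows and in 12.1% and 13.7% of the conservative windows. The upstream windows are longer, so shares in upstream and conservative windows, here and below, are not directly comparable. Within 60 bp of each other, the marked strings stood upstream of 24 genes, 0.120% of all, which were the 4 genes above and 20 others. The strings were picked from the peaks of those 4 genes, and 60 bp exceeds each distance given above. The share is thus a description only. Of the 20 others, 6 had the same order with GCGGGAAA on the strand of the gene, and 0 of the 20 had a conservative promoter summit. Of the 550 genes with GCGGGAAA upstream, 5.82% had a conservative promoter summit, a share that includes the 4 genes the string was picked from. Of the 546 without them, 28 had one, 5.13%, beside 2.88% of all genes, a difference that was not tested. A match to letters is a description of the sequence and not a binding site.

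GCGGGAAA was in none of the 500-bp windows upstream of the other 6 genes. In 4 of them it occurred with 1 mismatch. One was egg-2, which is also needed on the oocyte for sperm entry, like egg-1. There the string occurred with 1 mismatch, A8T counted from 1 at its 5′ end, 124 bp upstream of the start on the strand of the gene. AGATCAAA, read from the other strand as in egg-1, began 21 bp before it. At 1 mismatch or fewer the string is common, being upstream of 36.4% of all genes. The 100 bp from 170 to 71 bp upstream of each gene are printed to set these neighbouring stretches of a promoter with and one without a conservative peak side by side, chrIII:5728010-5728109 on the plus strand for egg-1 and chrIII:7060654-7060753 on the minus strand for egg-2, with capitals as above.
egg-1 upstream: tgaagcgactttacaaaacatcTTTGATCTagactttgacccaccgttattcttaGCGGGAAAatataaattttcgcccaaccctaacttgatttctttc
egg-2 upstream: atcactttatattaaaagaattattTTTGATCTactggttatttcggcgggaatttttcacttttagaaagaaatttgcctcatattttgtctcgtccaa

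The others at 1 mismatch were chs-1, cpg-3 and perm-2, and egg-3 and perm-4 had none closer than 2. The substitutions were G4C for chs-1, G1A for cpg-3 and A8C for perm-2. AGATCAAA without mismatch was also upstream of cpg-3, 47 bp from its start.

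**Figure D1:**
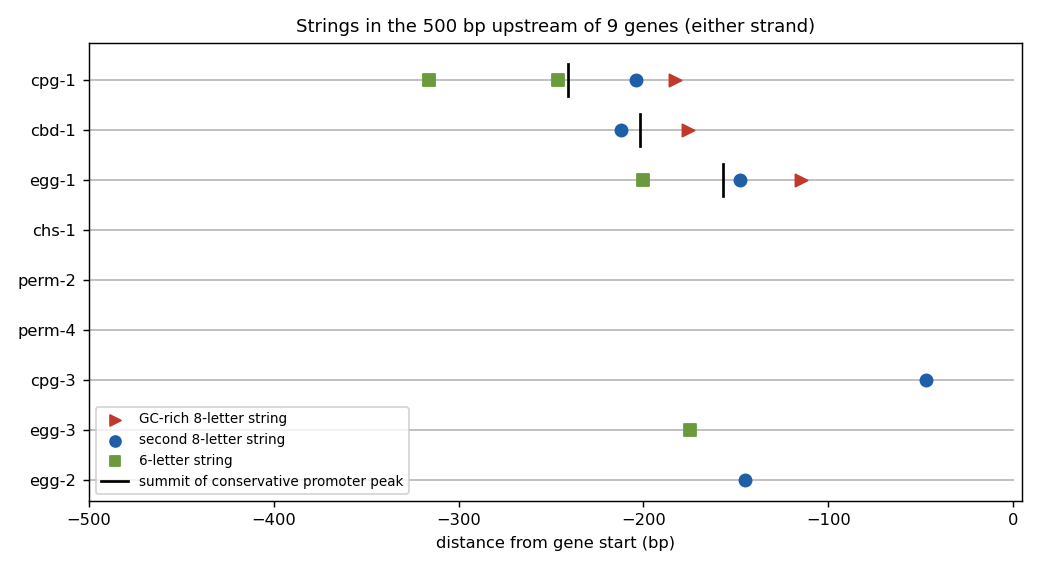
Positions of 3 strings in the 500 bp upstream of 9 of the 10 genes, without cpg-2, with distance from the gene start in bp on the horizontal axis and 1 line per gene. Triangles mark GCGGGAAA and point along the strand it reads on, circles mark AGATCAAA, squares mark the 6-letter string CGCGCC, and upright bars mark conservative promoter summits; among the 9, triangles stand only in the 3 genes with such a summit, whose peaks were among those the 8-letter strings were picked from.

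Another 4 strings, of 6 letters each, were searched on both strands. CGCGCC, known from earlier results of these data, was in the cpg-1 and egg-1 peaks and not in that of cbd-1. It was in 15.9% of the conservative windows and 7.61% of the upstream windows, and also upstream of egg-3, which had no conservative peak. GAGAGA was in none of these 3 peaks, TATAAA in those of cpg-1 and egg-1, and TTTGAA in all 3. Those strings were in 22.1%, 24.8% and 50.4% of the conservative windows. The 3 peaks also differed in base composition. G and C made up 28.4% of the cbd-1 peak, 35.5% of the egg-1 peak and 39.2% of the cpg-1 peak, where the median conservative window had 39.5%. The cbd-1 peak held 4 CG pairs and the cpg-1 peak 21, beside a median of 13. All 31-letter stretches of the 8 conservative peaks at these genes occurred once in the genome.

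The proteoglycan gene cpg-1 (WBGene00000465, chrIII:4489359-4491392, plus strand) had the tallest promoter peak of the 10 genes. Its signal value, the authors' column for the height of a peak, was 104 in replicate 1 and 89.4 in replicate 2, and 193 in the conservative list. The peak was 41st by signal among 1021, and its −log10 IDR was 4.97, where 2 is the threshold. The summit stood 241 bp upstream of the start in an intergenic stretch with no other gene within 2000 bp upstream. By the tallest promoter peak in the ranked list, which holds peaks before the threshold, cpg-1 stood 27th among the 12545 genes with one. For tallest ranked promoter peaks, here and below, the promoter was measured from the gene start and not from each transcript start. Its second conservative peak had signal values of 58.3 and 52.5 in replicates 1 and 2 and 97.1 in the conservative list. That summit lay in the 3′ UTR, 58 bp before the gene end, and the gene of the bZIP factor atf-7 ends 234 bp further on, facing it. The promoter peak was taller than the end peak in both replicates.

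cpg-2 (WBGene00015102, chrIII:7102092-7103990, minus strand), which encodes a second chondroitin proteoglycan with chitin-binding domains, had 3 conservative peaks. The promoter peak, 252 bp upstream, had signal values of 48.3 in replicate 1, 46.2 in replicate 2 and 96.0 in the conservative list. The peak at the gene end had 98.2, 79.6 and 187, with its summit in the conservative list 3 bp past the annotated end. That deposited peak was only 119 bp wide, where the commonest width was 296 bp. Here the end peak was the taller one in both replicates, the reverse of cpg-1. It was the 9th tallest gene-end peak among 7096 genes with a ranked peak within 200 bp of their end. Only 42 bp separate that end from the facing end of ZK418.11, so this peak lies as well in the window of that gene, 1800 bp from its start. The third peak lay in a coding exon 529 bp inside the gene, with 44.2, 33.6 and 79.9. Neither the promoter nor the exon peak was in the thresholded list of a single replicate, and cpg-2 was counted in that of replicate 1 through its end peak. In that of replicate 2 it was counted through its end peak and a peak of 24.2 in a coding exon, 159 bp before the gene end. Upstream, the pseudogene WBGene00023224 lies 1450 bp away on the same strand.

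cbd-1 (WBGene00010351, chrIV:11372991-11377627, plus strand), whose product is needed for the vitelline layer, had a promoter peak of 54.9 in replicate 1, 41.3 in replicate 2 and 98.5 in the conservative list. Its summit was 202 bp upstream of cbd-1 and 997 bp upstream of sec-31, a gene for a coat protein of vesicles leaving the endoplasmic reticulum. Both genes are read away from a shared interval of 1198 bp, so the peak falls in the promoter window of each and nearer to cbd-1. The peak at the end of cbd-1 had 81.7, 70.5 and 149 and its summit stood 10 bp past the gene end. As in cpg-2, the end peak exceeded the promoter peak in both replicates. The facing gene fbxb-76 ends 543 bp away. The promoter peak passed the threshold in replicate 1 and not in replicate 2 alone, and the end peak passed in both.

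egg-1 (WBGene00015083, chrIII:5728180-5730159, plus strand), which encodes a membrane protein with LDL-receptor repeats, was the weakest of the 4. Its only conservative peak had a signal value of 31.3 in replicate 1, 56.3 in replicate 2 and 82.9 in the conservative list, at a −log10 IDR of 2.58. The value in replicate 2 was 1.80 times that in replicate 1, whereas at the other 7 peaks the same ratio ran from 0.753 to 0.955. The replicate summits stood 59 bp apart, 215 and 156 bp upstream. The peak was in the thresholded list of replicate 2 and not in that of replicate 1. The nearest gene upstream is wrm-1, a beta-catenin gene on the same strand, which ends 1064 bp before egg-1. At the end of egg-1 the tallest ranked peak reached 24.2. That was below the median of 27.8 over the 7096 genes with a ranked peak within 200 bp of their end, which are 35.5% of all genes.

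**Figure D2:**
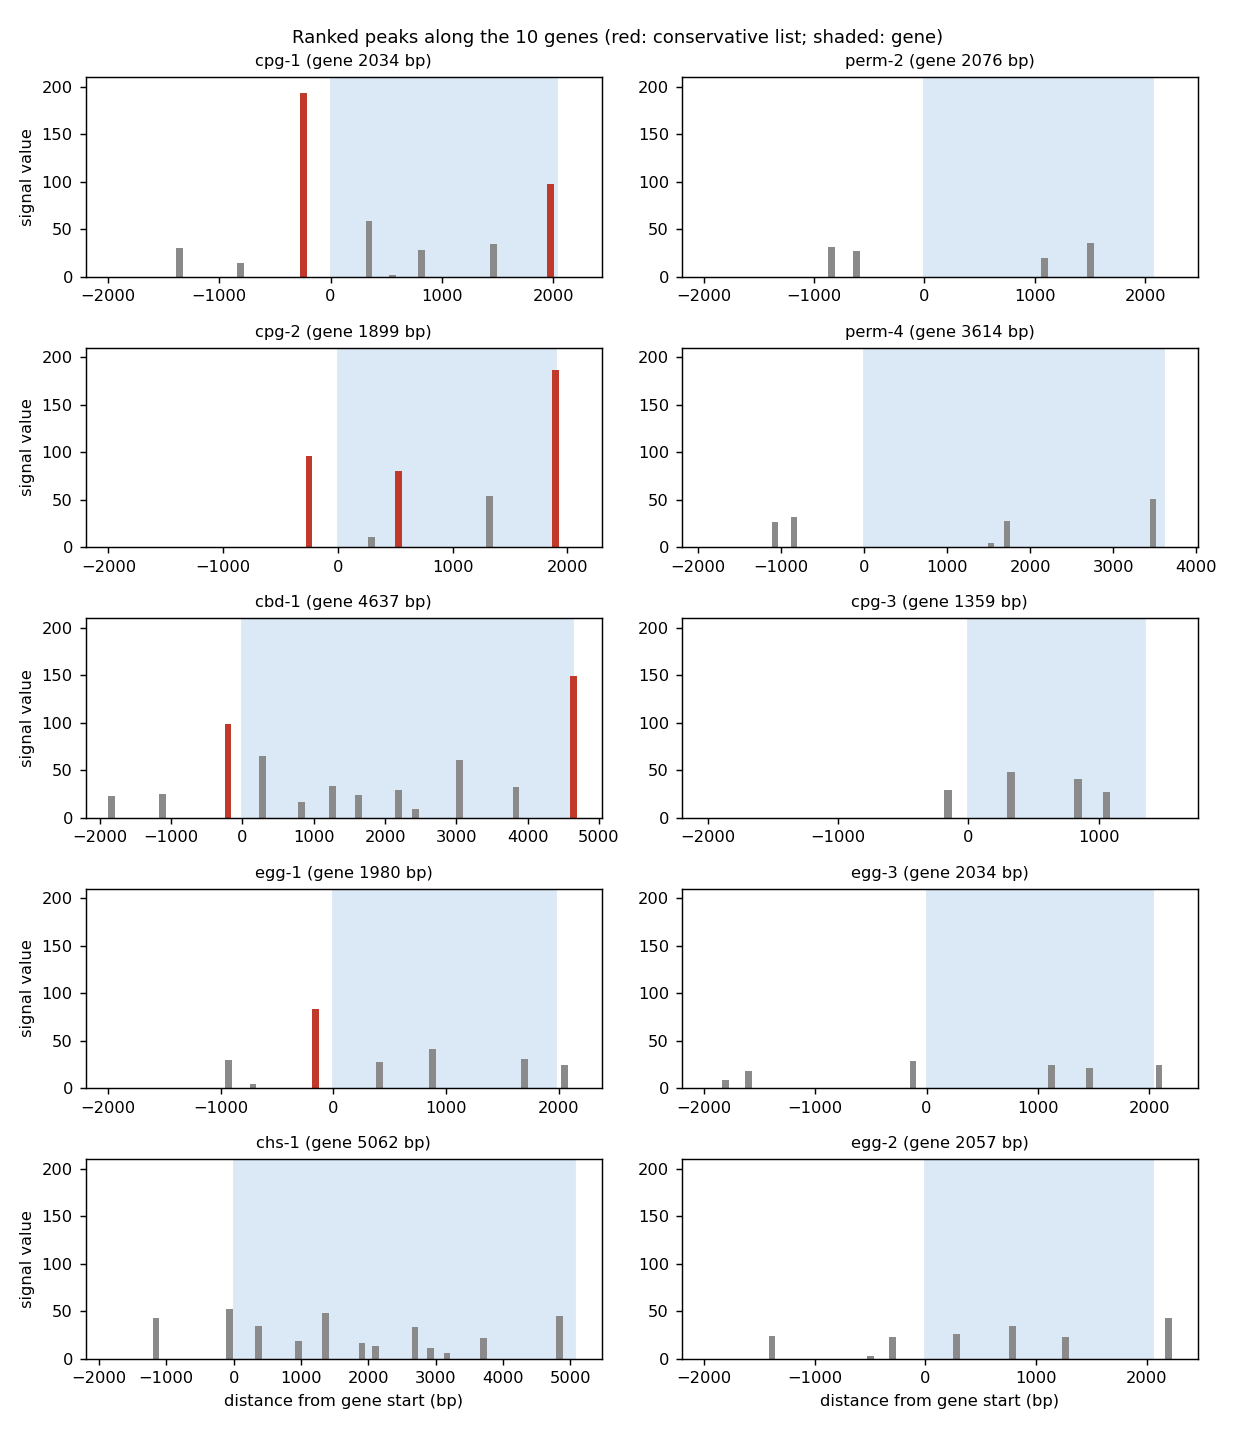
Every ranked peak from 2000 bp upstream to the end of each of the 10 genes, with distance from the gene start in bp on the horizontal axis and the conservative-list signal value as bar height. Each bar stands at a summit and its width has no meaning, shading marks the gene, red bars are in the thresholded conservative list and grey bars are not; cpg-1, cpg-2 and cbd-1 have red bars before the start and at the end, egg-1 has 1 before the start, and 6 genes have none.

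Of 19176 genes longer than 400 bp, 2.29% had a conservative summit within 200 bp of the end and 0.448% had one there and in the promoter. Among the 548 of these genes with a promoter summit, 15.7% had an end summit as well, where 3 of the 4 genes above did. The 200-bp tolerance was set after these peaks had been seen. All 3 end peaks lay at genes whose next gene downstream ends facing them. That also held for egg-1, egg-2, egg-3, cpg-3 and perm-2, which had no conservative end summit. The share of all genes with such a neighbour was not counted. In the conservative list the summits of cbd-1 and cpg-2 lay between the genes and that of cpg-1 inside its own 3′ UTR. At cpg-2 the summits of replicates 1 and 2 lay 57 and 51 bp past its end, inside ZK418.11. At cpg-1 the summit of replicate 2 lay 11 bp past the gene end. From the conservative summits, the nearest annotated transcript start was 1717 bp away for cbd-1, 1971 bp for cpg-1 and 1800 bp for cpg-2.

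Replicates 1 and 2 gave unlike calls near the threshold. In the thresholded list of replicate 1, 3 of the 10 genes had a peak (2.98% of all genes), without egg-1. In that of replicate 2, 4 had one (2.57% of all genes), and 4 had one in the list from pooled reads (5.70%). In the ranked lists, all 10 genes had peaks, as did 88.4% of all genes in the conservative, 84.6% in the pooled, 79.2% in the replicate 1 and 82.2% in the replicate 2 ranked list. The threshold fell between the exon peak of cpg-2, at a −log10 IDR of 2.36, and a peak 346 bp inside cpg-1 at 1.49. That last peak had a signal value of 58.4, with 24.5 and 34.7 in replicates 1 and 2. Next below it was a peak 1321 bp inside cpg-2, with 53.6 and a −log10 IDR of 1.44. Signal and IDR did not give the same order. The tallest peak outside the threshold, 284 bp inside cbd-1 in a coding exon, had 17.7 in replicate 1, 44.2 in replicate 2 and 64.7 in the conservative ranked list, but a −log10 IDR of 0.704.

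Of the 6 genes without a conservative peak, chs-1 (WBGene00000496, chrI:7554855-7559916, plus strand), the chitin synthase of the eggshell, came nearest by signal. Its tallest ranked peak stood 63 bp upstream of the start, with 26.1 in replicate 1, 26.9 in replicate 2 and 52.9 in the conservative ranked list, at a −log10 IDR of 1.24. Its replicates lay close together and below both replicates of each of the 4 promoter peaks above. T25G3.1, on the same strand, ends 301 bp upstream.

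Products of perm-2 (WBGene00016636, chrIV:1126790-1128865, plus strand) and perm-4 (WBGene00016638, chrIV:1121494-1125107, minus strand) join the vitelline layer with CBD-1. The genes diverge from a shared interval of 1682 bp. The tallest ranked peak of that interval, 841 bp from the start of perm-2 and 842 bp from that of perm-4, had 15.8 and 14.8 in replicates 1 and 2 and 31.7 in the conservative ranked list. Within perm-4 a peak 135 bp before its end had 19.6, 28.1 and 50.95. The tallest peak in the window of perm-2 was 1506 bp inside the gene at 12.3, 17.7 and 35.7.

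cpg-3 (WBGene00011063, chrI:7244937-7246295, plus strand) encodes another chondroitin proteoglycan, and its start lies 969 bp from that of dhp-1, a dihydropyrimidinase gene read the other way. The promoter peak of cpg-3, 158 bp upstream, had 13.9, 23.1 and 29.2 and its tallest peak, 326 bp inside the gene, had 27.7, 22.8 and 48.4. Neither reached the values of the promoter or end peaks of cpg-1 and cpg-2.

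egg-3 (WBGene00009701, chrII:10882408-10884441, minus strand) encodes a phosphatase-like protein needed to place the chitin synthase at the oocyte cortex. Its tallest peak, 122 bp upstream, had 24.8 in replicate 1, 10.5 in replicate 2 and 29.1 in the conservative ranked list, the lowest window maximum of the 10 genes. F44F4.3 ends 263 bp upstream on the same strand, and the piRNA gene 21ur-13748 lies 1652 bp upstream.

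In egg-2 (WBGene00019811, chrIII:7058527-7060583, minus strand) the tallest promoter peak, 295 bp upstream, had 15.9, 10.03 and 23.0, the lowest promoter value of the 10. Both replicates were below those of egg-1, where the values were 31.3 and 56.3. A peak 138 bp past the end of egg-2, at the facing gene R01H2.2, had 27.9, 25.7 and 43.1. R01H2.4 ends 439 bp upstream on the same strand.

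Distances from the starts of the 6 genes to the nearest conservative summit ran from 6062 bp for cpg-3 to 43982 bp for egg-3. Over all 10 genes, the median signal of the tallest ranked promoter peak was 42.3, beside 28.7 for the 12545 genes with one, and 9 of the 10 lay above that median. Since the genes were chosen with their peaks known, this carries no further reading. The 1 peak shared by perm-2 and perm-4, at 31.7, entered for both genes. Those of egg-3 and cpg-3, at 29.1 and 29.2, were barely above the median of 28.7. Median gene lengths were similar, 2045.5 bp for the 10 and 2027 bp for all genes. The 10 genes ranged from 23.0 to 193, and egg-2 alone lay below the median of 28.7. Only 62.8% of all genes had a ranked promoter peak, and the others are left out, so 28.7 is not a median of the genome.

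**Figure D3:**
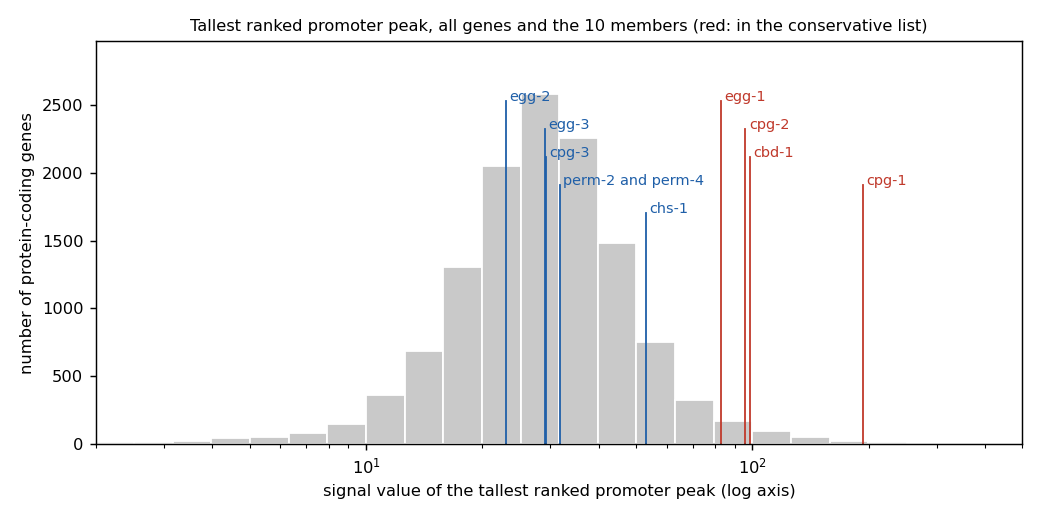
Signal value of the tallest ranked promoter peak on a log axis against the number of protein-coding genes (grey bars), with the 10 genes as upright lines, red where that peak was in the thresholded conservative list and blue where not. The red lines run from 82.9 to 193 and the blue lines from 23.0 to 52.9. They lie on either side of 52.4, the 90th percentile of genes with such a peak. The exception is chs-1, which stands just above it.

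Related genes of the eggshell, the oocyte and fertilization were read with the same window from a list drawn up with earlier results of these data known. Of 56 such genes, 11 had a conservative peak, 19.6% beside 6.26% of all genes. A promoter summit was present in 3 of the 56, where 2.88% of all genes had one. All 3 listed genes of egg activation had a conservative peak in the window, and 2 of them a promoter summit. egg-4 and egg-5 encode close relatives of EGG-3 that hold the kinase MBK-2 inactive at the oocyte cortex until the egg is activated. egg-4 had a promoter peak 280 bp upstream, with 43.4, 63.9 and 107, and a peak 108 bp past its end with 45.8, 66.6 and 114, the arrangement seen in cpg-1, cpg-2 and cbd-1. egg-5 had a peak 720 bp upstream with 56.3, 77.2 and 130. mbk-2 had 2 peaks near its end, of 83.7 and 71.3. Of these, egg-5 was in the thresholded lists of both replicates, egg-4 in that of replicate 2 and mbk-2 in that of replicate 1.

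Among 10 further genes named cpg, cpg-4 alone had a conservative peak, 72 bp upstream, with 38.4, 33.6 and 70.1. That call, like those of sqv-3 and sqv-5, was absent from the pooled list, from each replicate alone and at a −log10 IDR of at least 3. Synthesis of chitin and chondroitin was represented by 3 of 14 genes. Of these gfat-1, for the first enzyme of the hexosamine pathway that supplies the sugar of chitin, had a peak 1183 bp upstream at 89.4, and sqv-3 and sqv-5 had peaks at their ends. gfat-1 was in the pooled list but in that of neither replicate alone. The yolk receptor gene rme-2, 1 of 8 listed for yolk and the oocyte surface, had a peak 85 bp past its end at 84.0 and another 2 within its coding exons. The GTPase gene rab-11.1, 1 of 3 for cortical granule release, had one 65 bp past its end at 96.3. That summit also stood 394 bp upstream of the start of another gene. rab-11.1 was lost when the summit or 50% of the peak had to lie in the window. pod-2, for acetyl-CoA carboxylase, was 1 of 9 genes of the permeability barrier and lipids, with a peak 1899 bp upstream at 90.5. Of the single replicates, rme-2, rab-11.1 and pod-2 passed the threshold in replicate 1 and not in replicate 2.

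Y79H2A.3 itself had 2 conservative peaks inside its gene of 20791 bp, with signal values of 84.8 and 81.4. These are close to the median conservative signal of 82.9, and so is the peak of egg-1.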

How the data were processed

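Young adult worms gave 2 ChIP-seq samples in 1 group, labelled biological replicates 1 and 2. The authors deposited 8 peak lists on ce11, 4 of them thresholded at an IDR of 0.01 and 4 ranked without that threshold, for each replicate, for the pooled reads and for the comparison of the replicates (conservative). Which aligner and peak caller made them is not stated in the labels or headers. Signal values in column 7 are the authors' deposited peak heights, whose scale is not stated, and depth is unknown. The deposited −log10 IDR score of column 12 set the threshold. Summit offsets are as the authors deposited them. The other deposited columns, 74 of 120, were not used. In the conservative ranked list, the columns taken as replicates 1 and 2 equalled a value in their own replicate's list for 54.7% and 45.6% of peaks. They equalled one in the other's list for 1.70% and 1.60%. At all 8 conservative peaks of cpg-1, cpg-2, cbd-1 and egg-1, both columns equalled their own replicate's value. At other peaks given here this did not always hold. The 10.03 given for replicate 2 at egg-2 was not among that replicate's ranked peaks in the egg-2 window.

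Genes are those of Ensembl release 115 on the 6 nuclear chromosomes, and sequences are from the RefSeq WBcel235 genome. A peak was counted at a gene when at least 1 bp overlapped 2000 bp upstream to the gene end. Python 3.11.15, pandas 2.3.3, numpy 2.4.6 and matplotlib 3.10.9 were used, and the counting of peaks at genes was tested on simulated data. No test was run. The genes named are the 10, those sharing their upstream 2000 bp, the targeted gene and the 8 related genes of highest signal among those with a peak, of which 1 is not reported here, nor is the sequence of 1 promoter peak; facing genes downstream, cpg-4, sqv-3 and sqv-5 were named after their values were seen. The genes, the related list and the strings were chosen with earlier results of these data known. Alternatives were the pooled list, each replicate alone, a −log10 IDR of at least 3, and other windows and overlaps.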

Additional observations from a re-analysis of the deposited data

How the results depend on the processing

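The same 4 genes had a conservative peak and a promoter summit in the pooled list and with every other window and overlap tried. With replicate 1 or replicate 2 alone, genes with a peak were 3 to 4, but promoter summits were counted in 2 genes in each, cpg-1 and cbd-1 in replicate 1 and cpg-1 and egg-1 in replicate 2. At a −log10 IDR of at least 3, which left 387 peaks, egg-1 was lost and 3 remained. The share of all genes with a promoter summit was not counted for these alternatives. Related genes with a peak numbered 3 to 7 in single replicates, 4 at that stricter threshold and 7 with 500 bp upstream, where 11 was the main count. By the window from 2000 bp upstream to the gene end, genes with a peak over the genome numbered 513 to 596 in single replicates. They numbered 533 at the stricter threshold, beside 1251. Signal values of all 8 peaks were equal in the pooled and conservative lists. Both lists carry the value from both samples, so this equality is no check of the values. No paired analysis was possible because there is only 1 group. With 2 replicates, no control and unknown depth, a gene without a conservative peak is one where none was detectable.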
